A study of Mus musculus with 15 samples.

Results

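The glutathione S-transferases (GST), UDP-glucuronosyltransferases (UGT) and sulfotransferases (SULT) of phase II conjugation were followed in the livers of mice developing diethylnitrosamine-induced hepatocellular carcinoma. Members were taken by name from the array, as the non-control probes whose gene symbol has the form of a cytosolic or kappa-class Gst gene, of Ugt1a, Ugt2a, Ugt2b or Ugt3a, or of Sult1 to Sult6. This gave 52 genes of 22030 with a symbol, read by 72 probes on 90 spots. There were 21 GST, 14 UGT and 17 SULT genes.

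Conjugation makes lipid-soluble compounds easier to excrete. GST enzymes attach glutathione to electrophiles, UGT enzymes attach glucuronic acid to bilirubin, steroids, bile acids and drugs, and SULT enzymes attach sulfate to phenols, steroids and bile acids. Hepatocytes are the main site of these reactions. Many of the genes lie side by side in clusters of near-identical copies, several differ in level between male and female mice, and many GST genes are known targets of the transcription factor NRF2 (Nfe2l2).

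All mice were CD1 males. Group C received saline in place of the carcinogen and group T received diethylnitrosamine (DEN), 25 μg per g of body weight, 15 days after birth. Both were then given an empty plasmid by hydrodynamic gene delivery, an injection that carries plasmid DNA into liver cells. Group G received DEN and the plasmid pcDNA3/CAG-HAGas1, in which the CAG promoter drives an HA-tagged growth arrest specific 1 gene (Gas1). Each delivery used 50 μg of plasmid. Delivery ran weekly from week 28 to week 34 after birth, and livers were taken at week 35, whereas the sample labels state an age of 10 weeks. Transient delivery of this kind reaches a fraction of the liver cells, and the RNA came from whole liver, so fewer cells of a type and less RNA per cell cannot be told apart.

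There were 15 arrays on 2 slides, 4 of group C, 5 of T and 6 of G. Arrays C3 and C4 carried 1 RNA code, as did T4 and T5, so each pair was averaged, leaving 3 mice in C, 4 in T and 6 in G, numbered as replicates. Between 15707 and 29765 of 59305 non-control spots were well above background on an array, and 8492 genes had a probe above it on all 15. The array probe for Gas1 gave log2 differences of 0.08 (SE 0.08, adjusted p = 0.765 by limma) between G and T and 0 (SE 0.09) between T and C. Whether that probe can detect the transcript of the plasmid was not tested. Of 6 hepatocyte markers, 6 were above background on all 15 arrays, among them albumin (Alb), whereas 1 of 6 bile duct markers was.

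Levels below are log2 normalized signals per mouse, and differences are differences of group means on that scale. Of the 52 members, 36 were well above background on all 15 arrays, comprising 19 GST, 12 UGT and 5 SULT genes. Another 9 were above it on some arrays. The remaining 7 were above it on none, among them Sult2a1, Sult2a2 and Sult3a1, which are known as female-biased genes of mouse liver. No level was filtered, so all 52 members were tested, and a call means an adjusted p under 0.05 over all 22030 genes in limma.

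The first comparison, T against C, addresses what the carcinogen did to these genes. In T livers 3 GST genes fell, Gstm6, Gstm7 and Gstt3, and 1 UGT gene rose, Ugt2b35. No SULT gene passed the test by limma, although 6 of 17 SULT genes had an unadjusted p under 0.05, beside 20.2% of all genes. The t-test of the methods called 0 of the 52 members after Benjamini-Hochberg adjustment and 12 at an unadjusted p under 0.05. The share of all genes under that p by this t-test was not taken, so the 12 have no base beside them. The 4 calls are 7.69% of the members, beside 2.37% of all genes. In the downward direction 3 members were called, beside 1.2% of all genes, and in the upward direction 1 member, beside 1.18%. The median log2 difference of the GST genes was -0.46 with 17 of 21 below 0, against a median of 0.005 over all genes, but with median scaling of the arrays it became 0.35 with 4 of 21 below 0. That scaling also moved the median of the 8492 genes above background on all arrays from 0.01 to 0.65, and relative to it the GST median lay at -0.29 and 14 of 21 genes below. The UGT median was -0.03 and the SULT median 0.03.

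**Figure D1:**
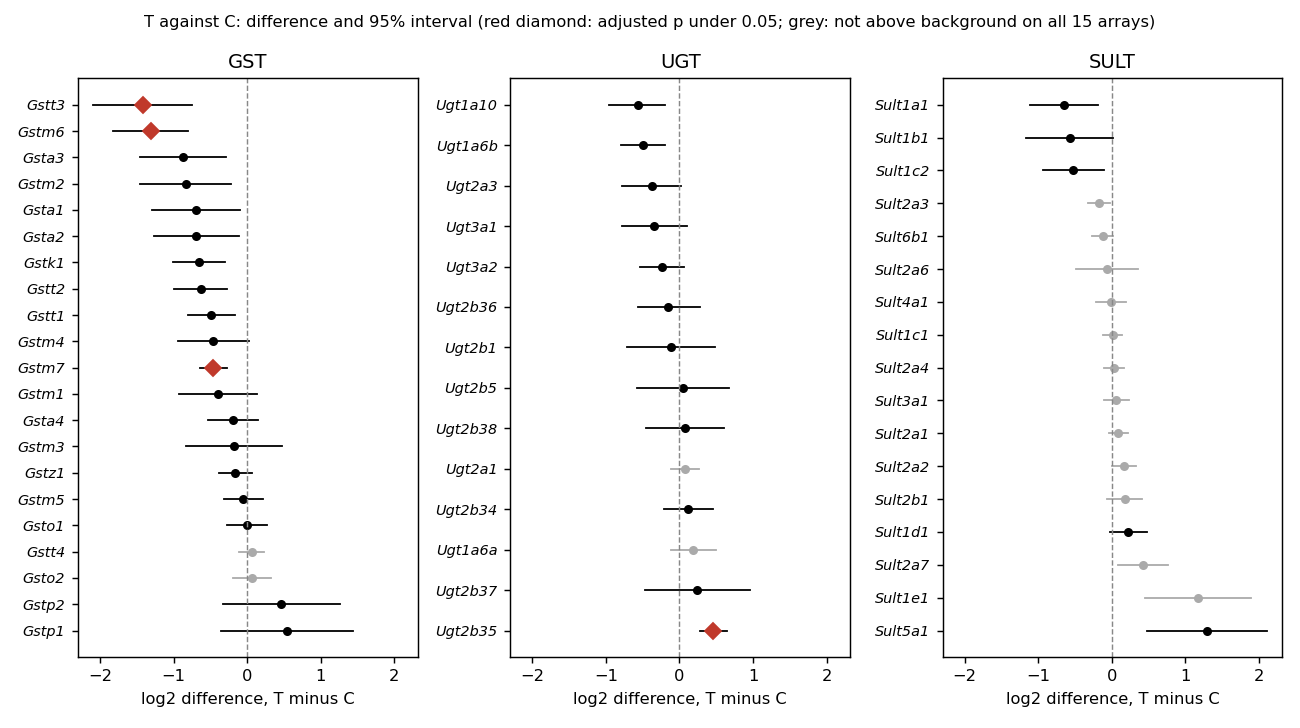
Log2 difference between T and C (x axis) of each member, by family, with its 95% interval. Red diamonds passed the test over all genes, and grey points were not well above background on all 15 arrays. Most GST points lie left of 0, with Gstt3 at -1.42 and Gstm6 at -1.31, and UGT and SULT points lie on both sides. Under median scaling of the arrays 13 of the 21 GST genes turned, Gstt3 and Gstm6 not among them.

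Gstm6 is a mu-class GST. Its log2 signal was 11.24, 10.74 and 11.18 in the control mice and 10.13, 8.93, 9.79 and 10.13 in the T mice. No T mouse reached the lowest control. The log2 difference was -1.31 (SE 0.24, adjusted p = 0.0199), a 2.48-fold fall. In G it ran from 10.19 to 10.48, between the other groups.

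Gstm7, another mu-class gene, had log2 signals of 8.58, 8.35 and 8.60 in C and 8.19, 7.97, 8.01 and 8.01 in T. The groups did not overlap, and the log2 difference was -0.46 (SE 0.08, adjusted p = 0.0199), a 1.38-fold fall that turned to 0.28 under median scaling. One of its probes was spotted 10 times on each array, with an SD between spots of 1 array of 0.05 to 0.18 log2 units, which does not include the variation between mice. Its other probe spans a splice junction and is shown beside the junction probe of Gstm3, a mu-class gene that was not called, so that the sequences behind both values can be compared. Both are 60 bases long, on the minus strand of mm9, at chr3:107732073-107733247 for Gstm7 and chr3:107769290-107770549 for Gstm3.
Gstm7: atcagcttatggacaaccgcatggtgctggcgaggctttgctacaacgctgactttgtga
Gstm3: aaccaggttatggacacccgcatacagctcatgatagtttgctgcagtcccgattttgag

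Gstt3 belongs to the theta class. Its log2 signals were 10.15, 11.08 and 10.69 in C, and 9.11, 8.87 and 9.68 in T, where replicate 3 was dropped because its spot carried an outlier flag. The highest T mouse lay below the lowest control. The log2 difference was -1.42 (SE 0.31, adjusted p = 0.04), a 2.68-fold fall. Without C replicate 1 or without T replicate 3 the test called none of the 52 members, and without T replicate 4 it called Gstm6 only. Leaving out C replicate 2 kept 2 calls, Gstm6 and Gstm7, while leaving out T replicate 1 gave 8 calls. Under median scaling none of the 3 GST calls held and Ugt2b35, Gstm5, Sult1d1 and Sult5a1 were called, all higher in T, and with the 75th percentile of the software's signal none of the 4 calls did.

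**Figure D2:**
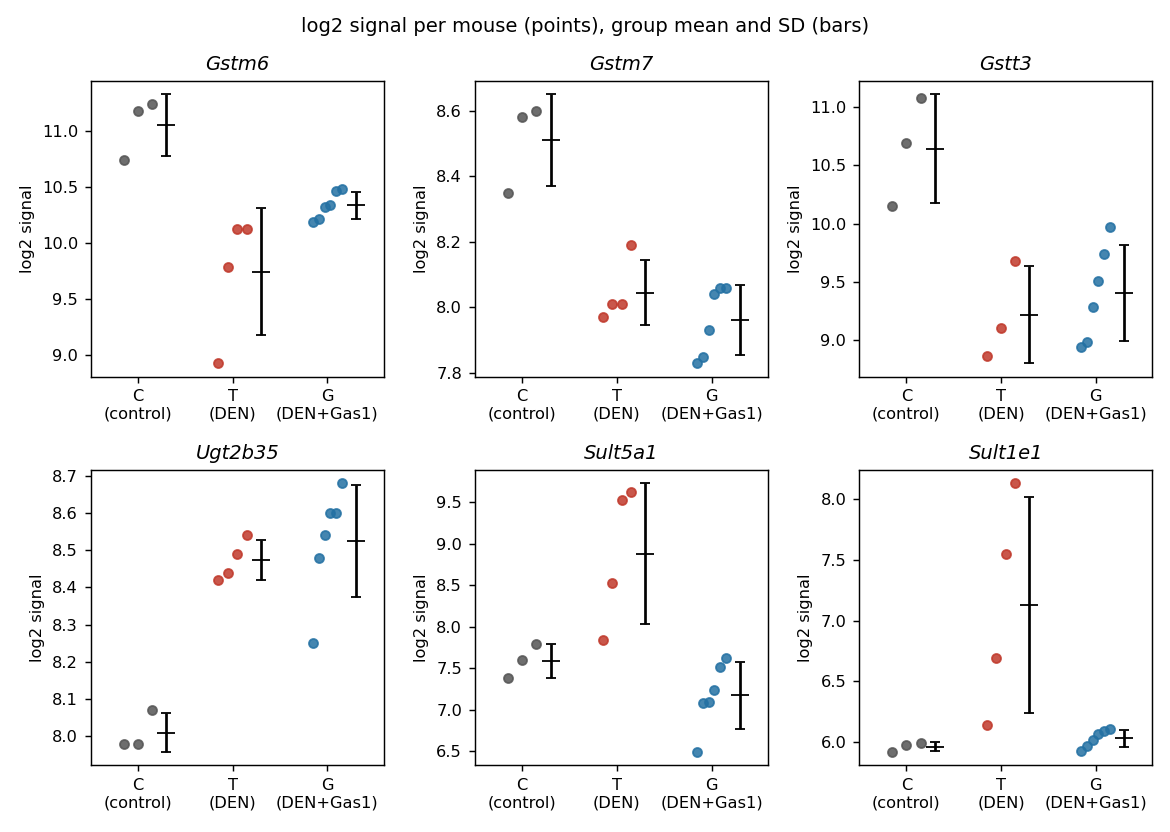
Log2 signal (y axis) of the 4 called members and of Sult5a1 and Sult1e1 in each mouse of groups C, T and G. Points are mice and bars give the group mean and SD. Gstm6, Gstm7 and Gstt3 lie lower in T than in C and Ugt2b35 higher, with G on the T side of C in each, whereas Sult5a1 and Sult1e1 are highest in T. Under median scaling the Gstm7 difference between T and C turned.

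By class, 4 of 4 alpha genes and 7 of 7 mu genes had a lower mean in T than in C, with median log2 differences of -0.69 and -0.46. Under median scaling 2 of the 4 alpha genes and 6 of the 7 mu genes turned, Gsta3 to 0.20 and Gstm7 to 0.28 among them, while Gsta1 and Gsta2 came to -0.04 each and Gstm6 to -0.36. Mice of T and C did not overlap for 18 of the 52 members, 34.6%, beside 19.1% of all genes. They comprise 7 of 21 GST genes, each lower in T, beside 8.72% of all genes, 2 UGT genes, and 9 of 17 SULT genes, 5 higher and 4 lower. Among the last, Sult2a1 was above background on no array and Sult2a3 on 1. Gsta3, an alpha-class gene, lay between 15.39 and 15.51 in C and between 13.83 and 15.34 in T. Its log2 difference of -0.87 (SE 0.27) had an adjusted p of 0.101. Gsta1 differed by -0.70 (SE 0.28, adjusted p = 0.183) and its neighbour Gsta2 by -0.69 (SE 0.27, adjusted p = 0.177). In both genes the groups overlapped. Gstk1 and Gstt2, where the groups did not overlap, missed the threshold at -0.66 (SE 0.16, adjusted p = 0.0562) and -0.63 (SE 0.17, adjusted p = 0.0639), and turned to 0.35 and 0.28 under median scaling.

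Among the GST genes above background on all arrays, the pi-class genes had higher means in T, a direction that rests on control replicate 2. Gstp1 had a log2 difference of 0.54 (SE 0.42, adjusted p = 0.519) and Gstp2 of 0.46 (SE 0.37, adjusted p = 0.529). Control replicate 2 stood apart in both, at 12.78 for Gstp1 against 14.69 and 14.47 in the other controls, and at 14.42 for Gstp2 against 16.16 and 15.96. Without it the differences were -0.06 for Gstp1 and -0.08 for Gstp2, and within slide 2 they were -0.01 and -0.03. Pi-class GST is known to be higher in male than in female mouse liver. In the same mouse Hsd3b5, a male-biased gene, was at 10.43 against 12.26 and 12.37, and Cyp2b13, a female-biased gene, at 9.5 against 5.95 and 7.57. The part of these differences in the Gstp values was not tested.

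Among the UGT genes, Ugt2b35 rose. It belongs to the Ugt2b cluster on chromosome 5, whose products conjugate steroids and other small molecules. The log2 signals were 8.07, 7.98 and 7.98 in C and 8.42, 8.49, 8.44 and 8.54 in T. The groups did not overlap, and the difference of 0.46 (SE 0.08, adjusted p = 0.02) is a 1.38-fold rise. The other 6 Ugt2b genes had log2 differences between -0.15 and 0.24, and none passed the test. Ugt1a10 lay lower, by -0.57 (SE 0.18, adjusted p = 0.0997), and Ugt1a6b by -0.50 (SE 0.14, adjusted p = 0.0731), which turned to 0.48 under median scaling. These Ugt1a genes, like Sult1e1, Gstk1, Gstt2 and Gstm1 below, were singled out after their values were seen.

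The SULT family held the members that were furthest up in T. Sult5a1, a sulfotransferase of little-known substrate, had log2 signals of 7.60, 7.38 and 7.79 in C and 7.84, 8.53, 9.53 and 9.62 in T. The T mice spread widely, but the lowest of them lay just above the highest control. The log2 difference was 1.29 (SE 0.38, adjusted p = 0.0855), so it missed the threshold. Leaving out T replicate 1, the lowest of the T mice, brought it among the calls.

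Sult1e1, the estrogen sulfotransferase, was well above background on 0 of 4 C arrays, 4 of 5 T arrays and 0 of 6 G arrays. Its log2 signals in T were 6.14, 7.55, 6.69 and 8.13, whereas the controls lay between 5.92 and 5.99 and the G mice between 5.93 and 6.11. The measured log2 difference was 1.17 between T and C (SE 0.33, adjusted p = 0.079) and -1.1 between G and T (SE 0.28, adjusted p = 0.144). Neither contrast passed the test. Taking the detection floor of each array for the dim groups gave 1.71-fold higher in T than in C and 1.92-fold higher than in G. These 2 values were not tested, and their T mean includes an array that was not above background. The measured difference between T and C was 1.88 within slide 1 and 1.01 within slide 2. The 5 Sult genes above background on all arrays also include Sult1a1, the phenol sulfotransferase, at -0.65 (SE 0.21, adjusted p = 0.113) between T and C, which turned to 0.34 under median scaling. Sult1b1, an enzyme of thyroid hormone and phenol sulfation, stood at -0.57 (SE 0.27, adjusted p = 0.265).

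The second comparison, G against T, addresses the delivery of Gas1 during tumour growth. No member passed the test by limma, where 29 genes, 0.132% of all, were called. At an unadjusted p under 0.05 there were 16 members by limma and 14 by the methods' t-test, which called 0 members after Benjamini-Hochberg adjustment. By limma 10.8% of all genes were under that p, and the share by the t-test was not taken. The GST median log2 difference was 0.27, with 16 of 21 genes higher in G, and it was 0.17 with 14 of 21 higher under median scaling. The UGT median was 0.16 and the SULT median -0.08. These differences use the same T mice as the first comparison, so the 2 sets of values are not independent.

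Mice of G and T did not overlap for 6 members, beside 3.1% of all genes. Of these, 4 GST genes had the higher level in G, beside 1.1% of all genes. They are Gstt2, Gstk1, Gsta1 and Gstm6. For Gstt2, of the theta class, the T mice lay at 9.32, 8.92, 9.27 and 9.36 and the G mice ran from 9.57 through a median of 9.98 to 10.26. Its log2 difference was 0.72 (SE 0.14, adjusted p = 0.079). For Gstk1, the kappa-class gene, T lay between 11.55 and 11.85 and G between 12.10 and 12.49, the fit having dropped G replicate 5 for an outlier flag. Its log2 difference was 0.64 (SE 0.14, adjusted p = 0.119).

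The alpha-class pair stood next. Gsta1 was at 7.51, 6.56, 7.35 and 7.02 in T, and between 7.59 and 8.41 in G. The log2 difference was 0.94 (SE 0.24, adjusted p = 0.14), a 1.92-fold difference. Gsta2 differed by 0.98 (SE 0.23, adjusted p = 0.12), with 1 T mouse inside the range of G, and by 1.55 within slide 1 against 0.61 within slide 2. The 2 probes share an aligned stretch of 50 bases of which 46 are identical, so they may read each other's transcripts and are not independent. Gstm3, of the mu class, lay between 9.35 and 10.42 in T and between 10.17 and 11.33 in G, with a log2 difference of 0.83 (SE 0.25, adjusted p = 0.238). Gstm1 differed by 0.73 (SE 0.21, adjusted p = 0.19).

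**Figure D3:**
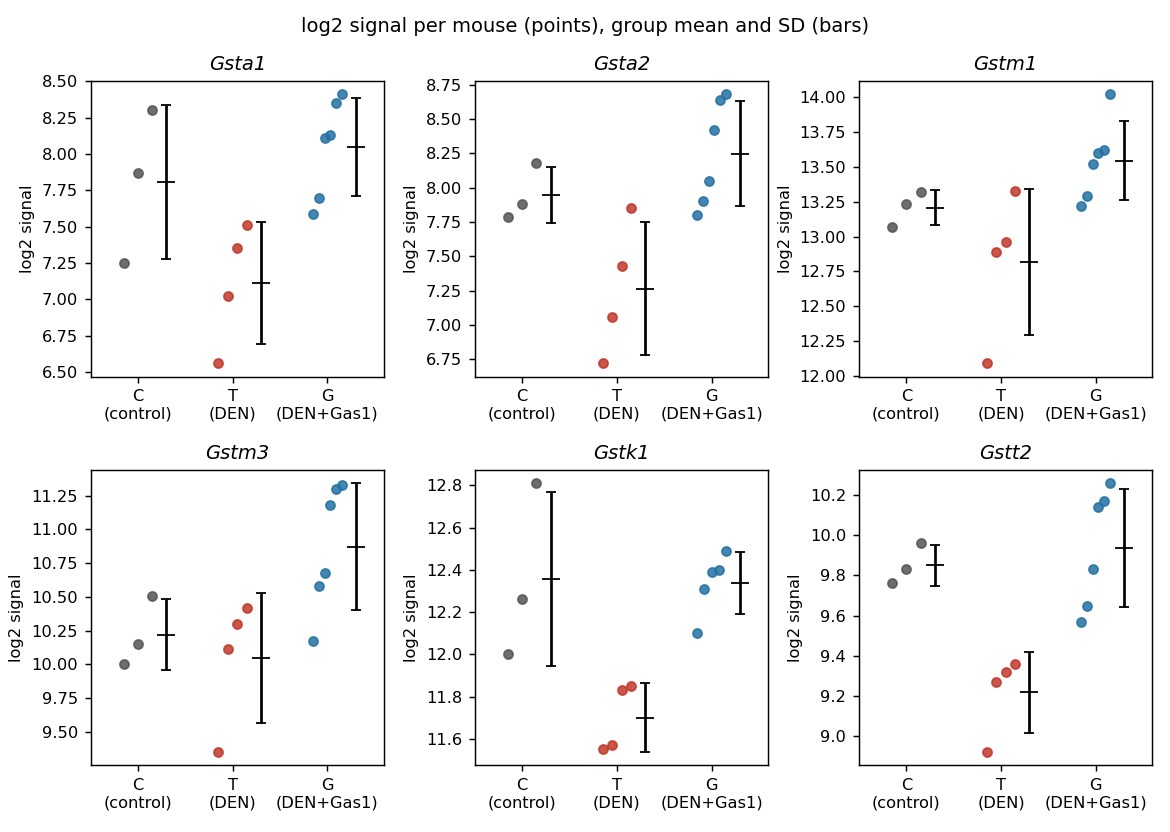
Log2 signal (y axis) of 6 GST members in each mouse of groups C, T and G, with points for mice and bars for the group mean and SD. In each panel the T mean is the lowest of the 3, and in Gsta1, Gstk1 and Gstt2 no T mouse reaches the lowest G mouse. None of these differences between G and T passed the test.

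The largest difference in size between G and T was downward. Sult5a1 ranged in G from 6.49 through a median of 7.16 to 7.62, and no G mouse reached the lowest T mouse at 7.84. The log2 difference was -1.71 (SE 0.32, adjusted p = 0.0658), 3.28-fold. Within slide 1 it was -2.14 and within slide 2 it was -1.60. When genes without a detected probe were left out of the testing, Sult5a1 and Gstt2 passed the threshold. With slide as a term and the mouse as a random block over all 15 arrays, Gstk1, Gstt2 and Sult5a1 did.

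Group G was also set against C, the controls without carcinogen. Here 2 members passed the test, 3.85% of them, beside 0.427% of all genes. Gstm7 was lower, with a log2 difference of -0.55 (SE 0.08, adjusted p = 0.0257), with all 6 G mice between 7.83 and 8.06 and below the lowest control. Downward calls made up 0.263% of all genes. Ugt2b35 had risen by 0.51 (SE 0.08, adjusted p = 0.0271), with G mice between 8.25 and 8.68, above the controls. Upward calls made up 0.163% of all genes. The Gstm7 call was lost without C replicate 1, and the Ugt2b35 call without C replicate 1, C replicate 2, G replicate 2 or G replicate 3. Neither call held with the 75th percentile of the software's signal, median scaling, cyclic loess or the adjusted t-test, and that of Ugt2b35 was also lost with the brightest probe.

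Mice of G and C did not overlap for 8 members, Gstm7 and Ugt2b35 included, beside 5.95% of all genes. The 4 GST genes among them, Gstm7, Gstt3, Gstm6 and Gsta3, were lower in G, beside 3.12% of all genes. Under median scaling Gstm7, Gstm6 and Gsta3 turned, to 0.12, 0.11 and 0.39, and Gstt3 did not. Gstt3 lay lower by -1.23 (SE 0.27, adjusted p = 0.0747), and Gstm6 by -0.72 (SE 0.22, adjusted p = 0.177). Sult1a1 differed by -0.79 (SE 0.20, adjusted p = 0.107), which turned to 0.05 under median scaling. The G mice had Gstt3 between 8.94 and 9.97, all below the lowest control at 10.15. Within slide 1 the Gstt3 difference was -1.75 and within slide 2 it was -0.74. In contrast Gsta1 differed between G and C by 0.24 with a 95% interval from -0.32 to 0.80, Gstk1 by -0.02 with -0.36 to 0.32, and Gstt2 by 0.08 with -0.25 to 0.42. For Sult5a1 the difference was -0.42 with an interval from -1.18 to 0.34. These intervals leave room for differences in either direction. Gstm3 was the GST gene with the highest mean difference, at 0.65 (SE 0.28, adjusted p = 0.335).

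The Ugt2b genes, which lie next to each other on chromosome 5, had a higher mean in G than in C in 6 of 7 cases, with a median log2 difference of 0.48. Besides Ugt2b35 none passed the test. Ugt2b38 differed by 0.53 (SE 0.23, adjusted p = 0.353), Ugt2b5 by 0.48 (SE 0.27, adjusted p = 0.477) and Ugt2b36 by 0.33 (SE 0.18, adjusted p = 0.477). Within slides 1 and 2 these differences were 0.8 and 0.26, 0.87 and 0.06, and 0.48 and 0.22. For Ugt2b5, G replicates 3 and 4 lay at 12.44 and 12.52 and the other G mice between 11.5 and 11.79. Probes of Ugt2b5 and Ugt2b37 share 46 of 55 bases, so these 2 genes may not be independent. Ugt2b1 was the exception, at -0.30.

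One mouse weighed on the GST values. T replicate 2 had the lowest signal of all 13 mice in 24 of the 36 members above background on every array, 66.7% of them, and in 14 of 19 GST genes. Over the 8492 genes above background on every array it was the lowest of all in 11%. Its summed signal for the hepatocyte markers was 19.24 on the log2 scale, within the range of 19.18 to 19.44 in T. That range lay below the controls, at 19.45 to 19.55, and G ran from 19.19 to 19.44. T replicate 2 had the lowest sum of all 13 mice for the pericentral hepatocyte markers, 15.67 against 15.91 to 16.5. Its sums were also the lowest for the export pumps, 11.88, and for the genes of glutathione supply, 12.04. The brightest genes weigh most in such sums. In the same mouse Abcc2, a pump, at 9.92, and Gss, of glutathione supply, at 9.24, lay above every control. For 6 exocrine pancreas markers the sum was 10.11, against 9.39 to 9.5 in the other T mice, a difference carried by Amy2a5 alone, at 9.5 against 8.18 to 8.24. The part of these genes in the result was not tested. Without T replicate 2 the GST median between T and C moved from -0.46 to -0.24, with 15 of 21 genes lower. The calls were then Gstm6, Gstm7 and Ugt2b35, and the GST median between G and T moved from 0.27 to 0.14.

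**Figure D4:**
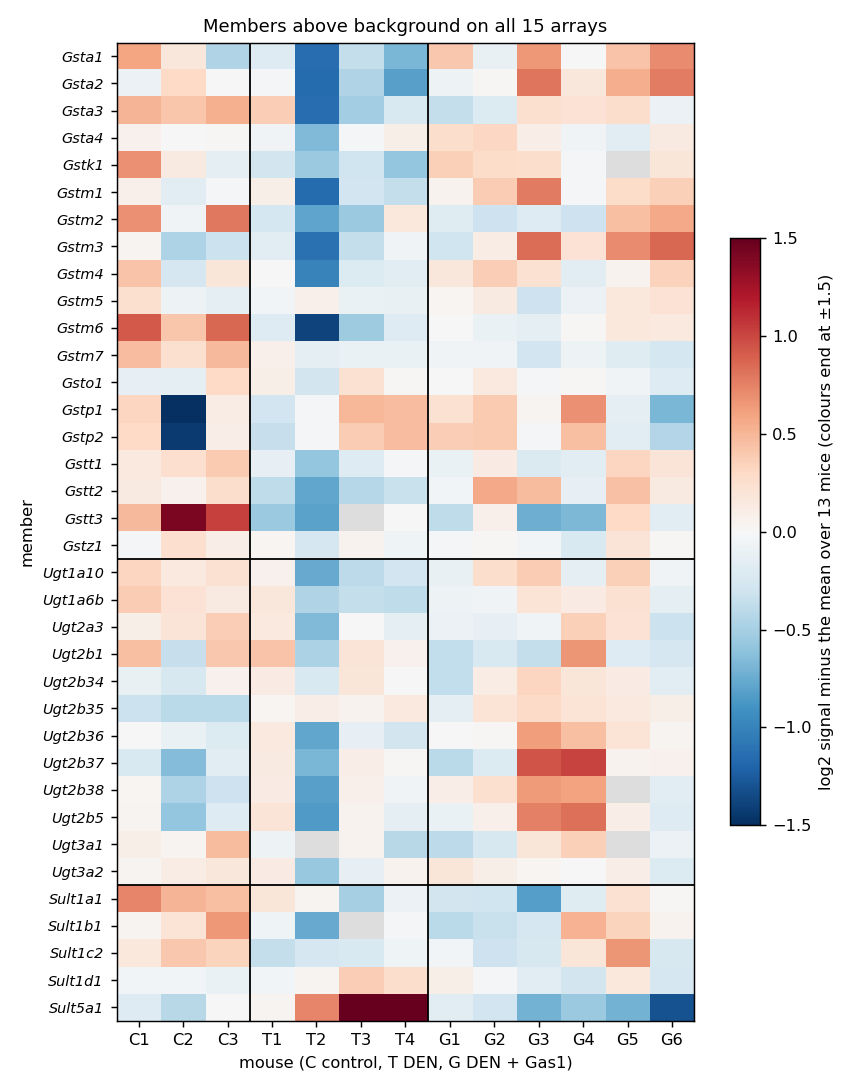
Log2 signal minus the member's mean over the 13 mice (colour), for the 36 members above background on all 15 arrays (rows, by family) and the 13 mice (columns, by group). Grey cells were dropped for outlier flags. The column of T2 is the lowest of all mice in 24 rows, C2 is low in Gstp1 and Gstp2, and Sult5a1 is high in T3 and T4.

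Several members were read by more than 1 probe, which bears on what a difference refers to. The 3 Gstm6 probes gave log2 differences between T and C of -1.31, -1.35 and -1.24, and each passed the test over all probes. The 2 Gstm7 probes gave -0.49 and -0.44, of which the first passed (adjusted p = 0.00961) and the second did not (adjusted p = 0.068). The 2 Ugt2b35 probes gave 0.53 (adjusted p = 0.0979) and 0.39 (adjusted p = 0.0664), so the call rests on their mean. The Gstm1 probes gave -0.49 and -0.29, although one is placed at chr5:117082490-117082549 in mm9 and the other in the mu-class cluster at chr3:107815595-107815654. No member had probes that differed in sign between T and C beyond their standard errors.

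In the Ugt1a cluster the probes parted. Ugt1a genes have first exons of their own joined to a set of common exons, so a probe in the common part can read several of them. The Ugt1a6b probe at chr1:90115493-90115552, towards the downstream end of the cluster, differed by -0.87 (SE 0.18, adjusted p = 0.03). The probe at chr1:90004249-90004308 differed by -0.13 (SE 0.14, adjusted p = 0.662). The gene value of -0.50 is the mean of both. A probe named for Ugt1a6a, further downstream at chr1:90116514-90116573, was above background on 3 of 15 arrays and differed by 0.19 (SE 0.14, adjusted p = 0.493). For Ugt1a10, a probe above background on all arrays differed by -1.04 (SE 0.27, adjusted p = 0.062), and the adjoining probe, above it on 2 of 15 arrays, by -0.11.

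**Figure D5:**
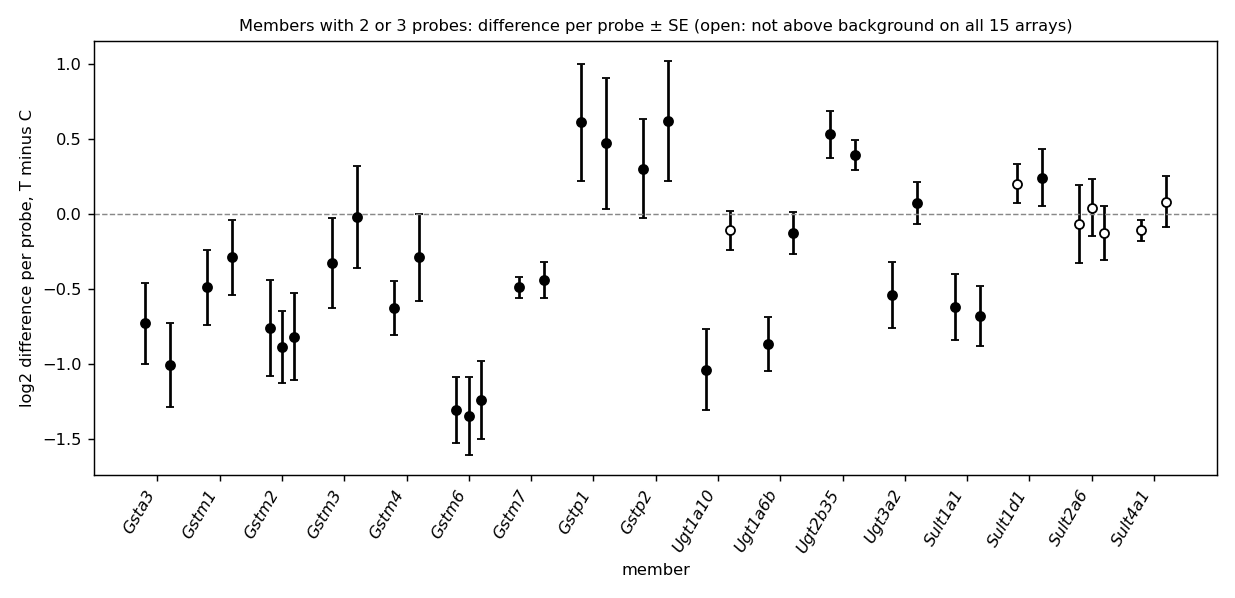
Log2 difference between T and C (y axis) of each probe of the members with 2 or 3 probes, with its SE as bars. Open points were not above background on all 15 arrays. The probes of Gstm6, Gstm7 and Ugt2b35 lie together, whereas those of Ugt1a6b, at -0.87 and -0.13, and of Ugt1a10, at -1.04 and -0.11, lie apart.

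Probes of different members were laid over each other without gaps. A pair was counted where at least 20 bases overlapped with at least 80% identity over the whole overlap. There were 8 such pairs. The closest were Sult2a1 with Sult2a2, 54 of 59 bases, and Sult2a1 with Sult2a4, 51 of 54, genes above background on no array. Ugt2b5 and Ugt2b37 shared 46 of 55 bases. The probes of Gstm6, Gstm7, Gstt3 and Sult5a1 were in none of the 8 pairs, and a Ugt2b35 probe shared 26 of 32 bases with that of Ugt2b37. Like stretches inside a longer, less alike overlap were not counted, so absence from the 8 pairs does not show that a probe is specific.

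Genes that supply or complement conjugation were listed alongside, and 54 of 54 were measured. Between T and C, 1 rose and 2 fell, between G and T none passed the test by limma, and between G and C 1 fell. At an unadjusted p under 0.05 there were 21, 15 and 15 in that order, beside 20.2%, 10.8% and 13.3% of all genes. The fallen genes were Nqo2, a quinone reductase, by -0.62 (SE 0.08, adjusted p = 0.00425), and Inmt, an indolethylamine methyltransferase, by -1.25 (SE 0.22, adjusted p = 0.0175). Slc35b1, a transporter of the endoplasmic reticulum membrane, rose by 0.56 (SE 0.14, adjusted p = 0.0495). Nqo2 was also the gene called between G and C, at -0.44 (SE 0.07, adjusted p = 0.0297).

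In the supply of glutathione, Gclc, the catalytic subunit of the rate-limiting step of its synthesis, differed by -0.62 between T and C (adjusted p = 0.171) and by 0.56 between G and T (adjusted p = 0.333). The medians of the 6 genes of that list were -0.06 and 0.06. Gss, of the same list, went the other way, between 9.24 and 9.54 in T and between 8.54 and 9.06 in C. Of 14 regulators, Nfe2l2, Nr1i2, Nr1i3 and Ahr among them, none passed in any comparison by limma, with 5 at an unadjusted p under 0.05 between T and C, 4 between G and T and 4 between G and C, beside 20.2%, 10.8% and 13.3% of all genes. Their median log2 differences were 0.02, 0.02 and 0.13 in that order. Of 5 export pumps none passed, with Abcc3, which carries glucuronides into blood, at -0.82 between T and C (adjusted p = 0.173) and 1.04 between G and T (adjusted p = 0.145). The medians of the pumps were -0.09 and 0.25. Abcc2 leaned the other way, between 9.77 and 10.07 in T and between 9.57 and 9.79 in C. Among 54 cell type markers 1 rose in T, the macrophage gene Emr1, and 2 fell, the hepatocyte gene Ttr and the periportal gene Ass1. Of all genes 2.37% were called. At an unadjusted p under 0.05 by limma there were 18 markers, beside 20.2% of all genes. The median log2 differences of the macrophage, hepatocyte and periportal lists were 0.3, -0.19 and 0.09. Each list held genes in the other direction, such as Clec4f at -0.06, Apoa1 at 0.55 and Pck1 at 1.22. Of 13 measured sex-biased liver genes 1 fell in T, the male-biased Cyp4a12a, by -0.99 on the log2 scale (adjusted p = 0.0183). None passed between G and T by limma. At an unadjusted p under 0.05 there were 8 between T and C, 4 male-biased and 4 female-biased, beside 20.2% of all genes. Between G and T there were 2, beside 10.8%. Of the 6 female-biased genes measured, 2 were above background on all arrays. The part of these genes in the member values was not tested.

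The 250 bases before the start were searched for the core of the antioxidant response element, TGACNNNGC, on both strands. RefSeq promoters (GRCm38.p6) were at hand for 44 of the 52 members. A match stood in 3 of 27 GST promoters, 11.1%, in 0 of 12 UGT and in 0 of 15 SULT promoters, against 10.2% of 32851 promoters of all genes. The matches were in Gsta3, Gstm5 and Gstm7. That of Gstm7 lay before the more downstream of its 2 starts only. The sequences of Gsta3 (plus strand, chr1:21240335-21240584), of Gstm7 before its upstream start (minus strand, chr3:107931818-107932067) and of Ugt2b35, the member that rose (plus strand, chr5:87000610-87000859), are shown for these windows, with a match in capitals.
Gsta3: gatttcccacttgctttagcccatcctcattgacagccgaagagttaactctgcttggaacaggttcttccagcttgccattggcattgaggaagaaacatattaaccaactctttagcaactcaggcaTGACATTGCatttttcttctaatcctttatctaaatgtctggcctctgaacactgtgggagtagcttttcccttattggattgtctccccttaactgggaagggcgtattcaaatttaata
Gstm7: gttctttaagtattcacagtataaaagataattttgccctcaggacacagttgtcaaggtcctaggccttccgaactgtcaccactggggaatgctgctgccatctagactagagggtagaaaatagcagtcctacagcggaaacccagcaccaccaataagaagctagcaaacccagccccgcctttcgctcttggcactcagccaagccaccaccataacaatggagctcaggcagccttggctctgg
Ugt2b35: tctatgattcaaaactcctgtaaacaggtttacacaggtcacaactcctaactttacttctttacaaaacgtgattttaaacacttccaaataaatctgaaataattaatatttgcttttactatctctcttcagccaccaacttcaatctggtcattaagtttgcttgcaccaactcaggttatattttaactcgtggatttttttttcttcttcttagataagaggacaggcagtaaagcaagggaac

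Gsta3 holds 1 match, 121 bases before its start, and the other 2 windows hold none. No match says only that these letters are absent from the window.

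Of 7913 genes outside the families, above background on all arrays and measured in 13 mice, those whose pattern was most like that of Sult5a1 were Klhdc4, Mtch2, Sumf2, Ube3c and Uspl1, with Pearson's r between 0.881 and 0.894 over the 13 mice. Klhdc4, on chromosome 8 as is Sult5a1, had mean log2 signals of 9.75 in C, 10.39 in T and 9.77 in G. Among the other members above background on all arrays, Sult1d1 came closest, with r = 0.792. These correlations are a description over mice of 3 groups, which share arrays and normalization.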

How the data were processed

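RNA of mouse liver was hybridised to 1-colour Agilent whole-genome arrays with probes of 60 bases, placed by the array design on mm9. The deposited scanner files hold, per the file headers, intensity values from Feature Extraction 10.7.3.1. Spot mean and background median intensity were corrected with normexp (offset 50) and quantile normalized over non-control spots on the log2 scale. Spots with an outlier flag were dropped, spots of a probe were averaged, and probes of a symbol were centred and averaged. Arrays with the same RNA code were averaged. The authors' deposited value table holds log2 values (column medians 6.1), and was used as an alternative. Gene values differed from it by a median of 0.00268, its scale being log2 and its centring not stated.

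All 13 mice of the 3 groups entered 1 linear model per gene (lmFit and eBayes of limma, version 3.58.1, under R version 4.3.3), with Benjamini-Hochberg adjustment over 22030 genes and a threshold of 0.05. Scripts were tested on simulated data. Intervals are at 95%. The number of arrays limits the precision. A p-value by limma sets a group difference against the spread between mice within groups, an estimate that draws on all genes. Members named with values were those called in any comparison, Gsta1 and Gstm3, and the 4 with the largest absolute difference in each comparison among members above background on every array of at least 1 of its groups. The 3 members of each family with the highest mean signal were also named, and others are named where counts or probes single them out. The members and all gene lists were chosen with earlier results of these data known. Alternatives were other scalings, a filter on dim probes, other ways to join probes, arrays as separate samples, slide and replicate blocks, a t-test as in the methods, and leaving out each mouse. Sources differ on RNA extraction, the labels naming TRIZOL and the methods a column kit.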

Additional observations from a re-analysis of the deposited data

Results flagged for a closer look

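Of 42 sets of 4 to 6 mice examined over 22 members, 1 held a mouse far from the rest by Dixon's criterion, and chance gives about 1 in 20. For Ugt1a6b in group T, replicate 1 lay at a log2 signal of 11.63, against 11.01, 11.11 and 11.08 in the other T mice.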

How the results depend on the processing

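The tests called 4 members between T and C, 0 between G and T and 2 between G and C, and counts are given in that order. With the 75th percentile of the software's signal the counts were 0, 0 and 0, with cyclic loess 2, 0 and 0, with median scaling 4 (all higher in T, 1 of them, Ugt2b35, called before), 0 and 0, and with the brightest probe 3, 0 and 1. With the filter on dim probes they were 7, 2 and 3, of 37 members tested rather than 52. With 15 arrays as separate samples, which counts arrays of 1 RNA code as different mice, they were 14, 5 and 4. With slide as a term and the mouse as a random block they were 8, 3 and 3. The methods' t-test gave 0, 0 and 0 after Benjamini-Hochberg adjustment and 12, 14 and 7 at an unadjusted p under 0.05. For these unadjusted counts the share of all genes by the t-test was not taken. The authors' value table, the plain mean of probes and the intensity trend kept 4, 0 and 2, and keeping outlier spots gave 5, 0 and 2. Leaving out each mouse gave between 0 and 8 in T against C, 0 and 3 in G against T, and 0 and 3 in G against C. Over 26 settings the call in T against C was kept in 21 for Gstm6, 19 for Gstm7, 14 for Gstt3 and 18 for Ugt2b35. The call in G against C was kept in 21 for Gstm7 and 17 for Ugt2b35. These settings share their data, 13 of them leaving out 1 mouse each, so they are not independent.

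The replicate block over 15 arrays gave 16, 2 and 6 calls. Same-numbered arrays of different groups correlated between -0.312 and 0.265, with 4 of 13 pairs over 0.1 and 2 of 15 arrays closest to their own number, so the numbers were not taken to pair samples.

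Under median scaling 24 of 52 differences turned between T and C, 5 between G and T and 20 between G and C. Among the differences of named members with an unadjusted p under 0.05 or called or largest, 9 turned: Gstm7 to 0.28, Gsta3 to 0.20, Gstk1 to 0.35, Gstt2 to 0.28, Sult1a1 to 0.34 and Ugt1a6b to 0.48 in T against C, and Gstm7 to 0.12, Sult1a1 to 0.05 and Gstm6 to 0.11 in G against C. That scaling moved the median of genes above background on all arrays to 0.65 and 0.56, and relative to it the 9 values lay between -0.51 and -0.17. Over all genes it called 2876 in T against C, 2861 of them higher, beside 523 and 259. The 75th percentile gave 57, 3 and 1 calls over all genes, beside 523, 29 and 94, and cyclic loess 186, 30 and 1. Separate arrays gave 1949, 268 and 338, the slide term 814, 75 and 176, and the replicate block 1606, 162 and 336. The trend gave 448, 15 and 59, and the adjusted t-test 0, 5 and 5. With the dim filter 703, 78 and 161 were called, of 10492 genes tested rather than 22030. Median scaling gave 8 and 0 in the latter comparisons. The cause was not tested. Members not above background on all arrays give at most a bound.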
